A study of Homo sapiens with 4 samples.

Results

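The lysosome and autophagy genes described here are 32 genes chosen by name among the 60651 gene IDs of a single-cell count table. They comprise 13 lysosomal hydrolases and other lysosomal proteins, 4 subunits of the proton pump, 4 genes around the transcription factor TFEB and 11 autophagy genes. Each of the 32 was found in the table under its own Ensembl ID. A gene was taken as measured where its level averaged at least 5 CPM (counts scaled to a library total of 1000000) over the 4 libraries, which held for 27 of the 32 genes and for 9579 genes of the whole table.

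The cells were CHP134, an established line from a human neuroblastoma of the adrenal gland, with no genetic change made for the study. They were exposed for 24 h to 13-cis retinoic acid (13cRA, isotretinoin) at 5 µM, to doxazosin at 10 µM, to both drugs together (the combination), or to the vehicle DMSO at 0.04%. 13cRA is a retinoid that drives neuroblastoma cells towards differentiation, and doxazosin is a blocker of α1-adrenergic receptors. Each treatment was 1 sample, and single live cells of all 4 samples were processed on 1 nanowell chip, so differences between treatments have no replicate check and no test is given.

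Lysosomes are acidic organelles in which hydrolases degrade proteins, lipids, sugars and nucleic acids. The vacuolar proton pump acidifies them, and TFEB with its relative TFE3 drives many of their genes through E-box elements of the CLEAR type when the kinase mTORC1 is low in activity. Macroautophagy delivers cytoplasm to lysosomes by building a double membrane around it, under the ULK1 kinase complex, the BECN1 lipid kinase complex, WIPI proteins and the conjugation of ATG12 to ATG5 and of LC3 and GABARAP proteins to lipid.

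The libraries differed in depth. Of 1287 cells, 1197 were kept because they held 500 or more genes and no more than 25% mitochondrial counts: 318 under 13cRA, 239 under doxazosin, 287 under the combination and 353 under DMSO. Summed counts ran from 22636509 in the 13cRA library to 72192743 in the combination library, and the median kept cell held 59200.5 counts under 13cRA, 171793 under doxazosin, 221558 under the combination and 122615 under DMSO. Mitochondrially encoded genes took 13.7%, 11.2% and 10.3% of counts under 13cRA, doxazosin and the combination, against 10.8% under DMSO. Among 9 noradrenergic neuroblastoma markers, 7 were measured, with summed levels of 2142, 1614 and 1558 CPM under 13cRA, doxazosin and the combination, against 1607 CPM under DMSO. MYCN, at 1168 against 759.6 CPM, and GATA3, at 465 against 313 CPM, made up most of the higher sum under 13cRA than under DMSO, whereas ISL1, at 11.9 against 54.4 CPM, GATA2, at 6.58 against 13.4 CPM, and PHOX2A, at 17.5 against 21.4 CPM, were lower there. The catecholamine synthesis genes TH and DBH, defining for mature noradrenergic cells, stayed at or under 0.177 CPM in every library. Of the markers of leukocytes and macrophages, cells rich in lysosomes, 0 of 8 were measured, with sums between 1.21 and 2.27 CPM. Summed fibroblast markers were 24.9, 12.5 and 8.99 CPM under 13cRA, doxazosin and the combination, against 13.4 CPM under DMSO. Endothelial markers summed to 22.8, 1.69 and 13.0 CPM against 1.31 CPM, of which CLDN5 made up 19.75 CPM under 13cRA and 11.1 CPM under the combination, and Schwann cell markers to 9.72, 1.30 and 2.80 CPM against 0.664 CPM. Epithelial markers summed to between 1.14 and 2.17 CPM. The part of the fibroblast, endothelial and Schwann cell marker genes in the results was not tested.

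The E-box CACGTG was searched on both strands of the RefSeq promoters (build GRCh38.p14), each 300 bases with 250 before and 50 after a start site. Of the 32 genes, 25 had a promoter in that table, and 7 of the 25 (28%) held CACGTG, against 8.77% of 27305 genes. In all 7 the E-box was preceded by T on one strand (TCACGTG, which always contains CACGTG), as in 4.49% of all genes in the table. The 7 were 5 of 9 lysosomal protein genes (LAMP1, CTSA, CTSD, GAA and MCOLN1), the 1 pump gene with an entry (ATP6V0D1) and 1 of 4 TFEB control genes (FNIP1). None of the 11 autophagy genes held it in these windows, including the genes ULK1, BECN1 and WIPI2. The only BECN1 window, chr17:42823830-42824129, lies inside the gene as annotated (42810134 to 42833350, minus strand), so sequence before its annotated 5′ end was not searched. The same holds for MAP1LC3B, whose only window is chr16:87392086-87392385 (gene 87383995 to 87404779, plus strand). Windows of some other genes without a match, among them CTSL, NPC1, NPC2, GABARAPL1 and ATG12, also lie inside the annotated gene. The genes LAMP2, CTSB, HEXA, PSAP, ATP6V1H, ATP6V1A and ATP6V1B2 had no entry.

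Promoters of 4 of the 7 are shown because they cover each role that held the motif and include LAMP1 and GAA, whose levels differed by over 1.5-fold between treatments. They are written 5′ to 3′ on the strand of the gene, with CACGTG in capitals. The windows are chr13:113296989-113297288 (plus strand) for LAMP1, chr17:80101331-80101630 (plus strand) for GAA, chr16:67481108-67481407 (minus strand) for ATP6V0D1 and chr5:131796968-131797267 (minus strand) for FNIP1.
LAMP1 promoter: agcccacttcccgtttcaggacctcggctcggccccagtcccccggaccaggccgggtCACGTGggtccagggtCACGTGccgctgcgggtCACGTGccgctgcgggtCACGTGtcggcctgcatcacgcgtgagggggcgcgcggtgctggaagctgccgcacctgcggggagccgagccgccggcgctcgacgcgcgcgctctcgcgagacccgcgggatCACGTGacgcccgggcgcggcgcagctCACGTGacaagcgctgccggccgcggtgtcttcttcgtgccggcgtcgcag
GAA promoter: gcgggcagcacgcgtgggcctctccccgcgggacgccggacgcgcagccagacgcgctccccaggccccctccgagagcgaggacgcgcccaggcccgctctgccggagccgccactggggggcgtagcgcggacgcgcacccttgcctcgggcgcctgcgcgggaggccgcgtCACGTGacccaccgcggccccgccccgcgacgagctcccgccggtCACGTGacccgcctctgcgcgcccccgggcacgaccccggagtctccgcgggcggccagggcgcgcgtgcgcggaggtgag
ATP6V0D1 promoter: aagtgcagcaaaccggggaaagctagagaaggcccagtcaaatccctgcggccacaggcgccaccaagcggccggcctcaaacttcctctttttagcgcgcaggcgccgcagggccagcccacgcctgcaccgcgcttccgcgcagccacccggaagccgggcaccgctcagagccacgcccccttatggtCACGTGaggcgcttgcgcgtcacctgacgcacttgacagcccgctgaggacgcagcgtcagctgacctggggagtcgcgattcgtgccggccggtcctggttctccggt
FNIP1 promoter: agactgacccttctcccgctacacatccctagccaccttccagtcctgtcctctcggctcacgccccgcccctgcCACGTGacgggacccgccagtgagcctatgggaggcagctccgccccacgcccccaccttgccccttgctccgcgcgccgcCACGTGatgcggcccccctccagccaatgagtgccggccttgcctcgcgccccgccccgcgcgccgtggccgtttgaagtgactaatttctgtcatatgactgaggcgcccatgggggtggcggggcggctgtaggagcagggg

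The LAMP1 promoter held 6 matches, 192, 176, 159, 142, 28 and 1 bases upstream of the start site, the most among the 7 genes. GAA held matches at 76 and 31 bases, ATP6V0D1 at 59 bases and FNIP1 at 175 and 94 bases upstream. Of the genes not printed, CTSA held them at 42 and 25 bases, MCOLN1 at 41 and 14 bases and CTSD at 47 bases. A match is a string in the sequence, and no binding was measured.

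**Figure D1:**
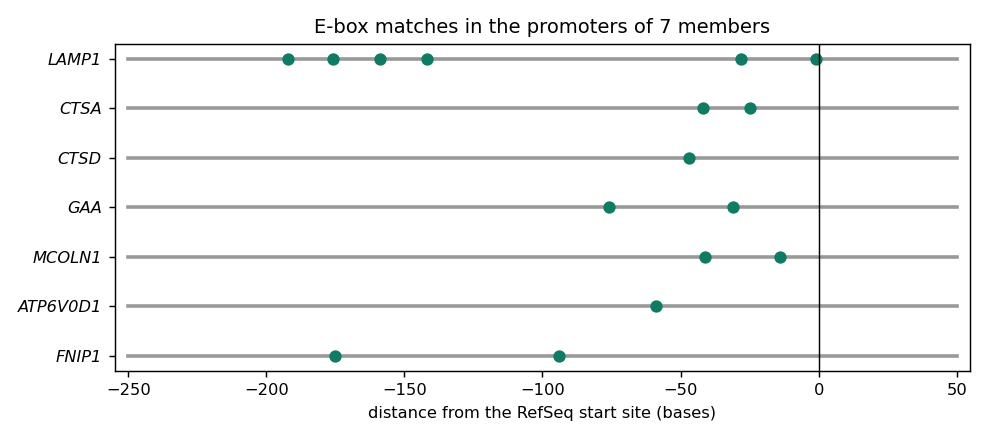
Positions of the E-box CACGTG in the RefSeq promoters of the 7 genes that hold it, in bases from the start site at 0, where negative values lie upstream and grey lines mark the 300-base window. LAMP1 carries 6 matches and each other gene 1 or 2, and in CTSA, CTSD, GAA, MCOLN1 and ATP6V0D1 every match lies within 76 bases upstream of the start site.

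Per kilobase of exon (CPM per kb, used only to compare genes), the highest mean levels were those of PSAP, at 79.3, and GABARAPL2, at 70.3. PSAP encodes prosaposin, the precursor of the saposins that help lysosomal hydrolases reach sphingolipids, and GABARAPL2 is a GABARAP-type protein of the autophagosome membrane. MAP1LC3B, the LC3 protein used as an autophagosome marker, followed at 22.6, and the pump subunit ATP6V1A at 18.6. Among proteases, CTSL averaged 15.3, CTSA 9.95, CTSD 8.36 and CTSB 6.28 CPM per kb. NPC1, which exports cholesterol from lysosomes, was the lowest measured lysosomal gene at 0.640 CPM per kb.

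The 5 genes under the minimum level were CTSZ, NPC2, TFEB, FLCN and GABARAPL1. TFEB itself had only 21, 25, 34 and 51 counts under 13cRA, doxazosin, the combination and DMSO, or 0.928, 0.541, 0.471 and 1.06 CPM. GABARAPL1 had 0 counts under 13cRA, which allows up to 0.1325 CPM (3 counts of the library), and 1, 2 and 3 counts under doxazosin, the combination and DMSO. An entry of its near-identical copy GABARAPL3 had the same counts, 0, 1, 2 and 3, in these libraries. How reads shared by the copies were counted is not given, so the level of GABARAPL1 is uncertain. NPC2, the partner of NPC1 in cholesterol export, had 0.928, 1.58 and 0.457 CPM under 13cRA, doxazosin and the combination, against 1.43 CPM under DMSO. NPC2 was thus at or under 1.58 CPM in every library. It shares 6.37% of its exon bases with other genes, of which ISCA2 on the opposite strand had 3092 counts against 196 for NPC2. CTSZ, a cysteine carboxypeptidase, had 5.92, 2.10 and 4.85 CPM under 13cRA, doxazosin and the combination, against 1.64 CPM under DMSO. Its exact 95% Poisson intervals, which cover counting error only, were 4.96 to 7.01, 1.70 to 2.56, 4.35 to 5.38 and 1.30 to 2.04 CPM in that order. The CTSZ intervals of the 2 libraries with 13cRA therefore lay above those of the 2 libraries without it, at a low level. FLCN, the folliculin that activates the RagC and RagD GTPases and so keeps TFEB out of the nucleus, had 3.36, 2.69 and 6.00 CPM under 13cRA, doxazosin and the combination, against 4.298 CPM under DMSO. FLCN was thus highest where both drugs were given and lowest under doxazosin alone.

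**Figure D2:**
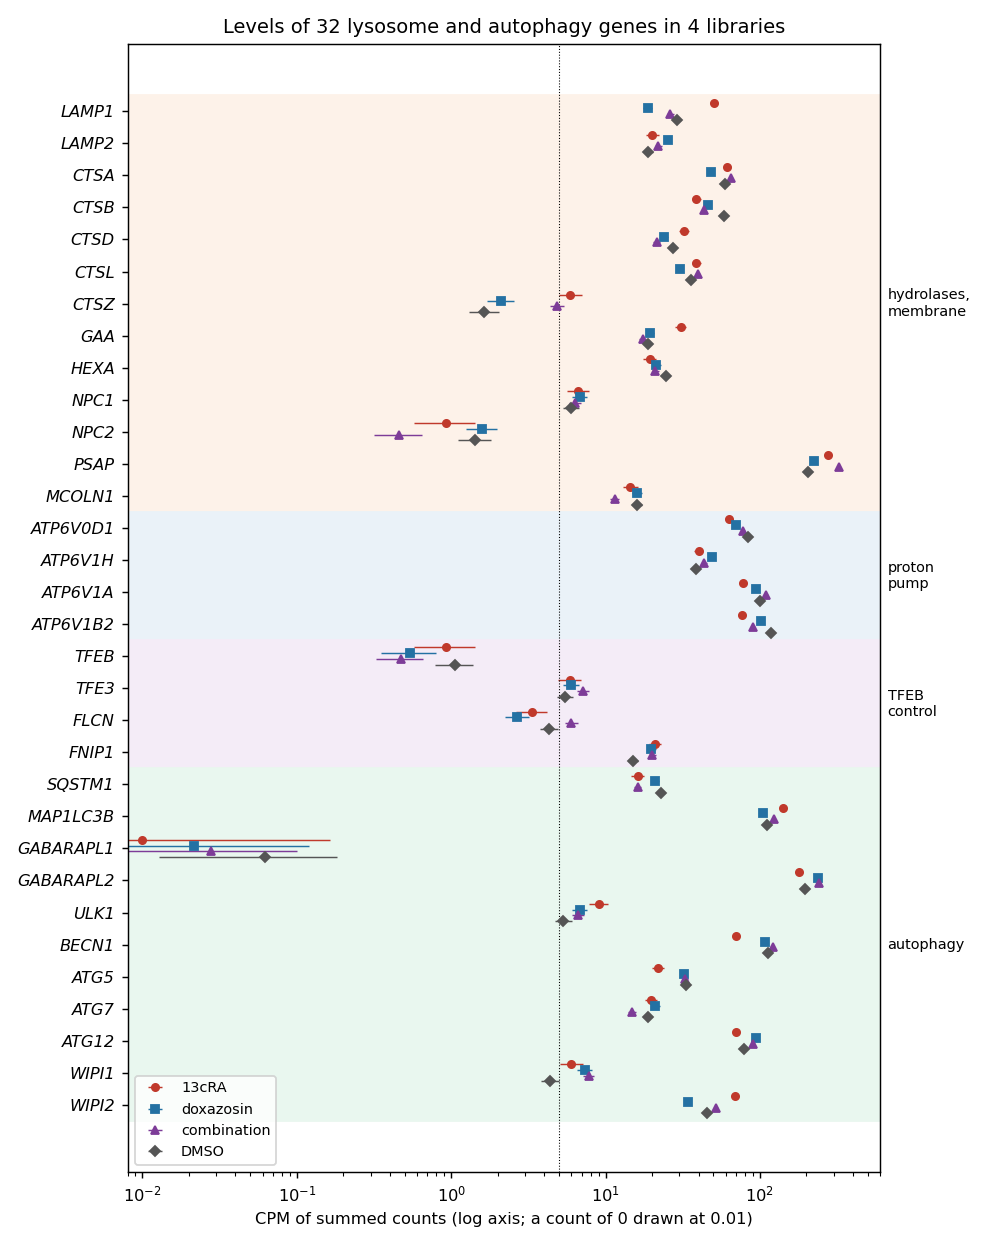
Level of each of the 32 genes in CPM of summed counts (log axis) in the 13cRA, doxazosin, combination and DMSO libraries, 1 sample each, with exact 95% Poisson intervals of the count as bars and the dotted line at 5 CPM. PSAP and GABARAPL2 lie highest, at 178 CPM or more in every library, while TFEB, NPC2 and GABARAPL1 lie under 2 CPM in every library.

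Under 13cRA, 7 of the 27 measured genes differed from DMSO by at least 1.5-fold (0.585 on the log2 scale), 4 higher (LAMP1, GAA, ULK1 and WIPI2) and 3 lower (BECN1, ATP6V1B2 and ATG5). The share past that fold was 27.6% among all measured genes, and 25.9% among the 27, so the genes were not past it more often than genes at large. Higher and lower calls made up 14.4% and 13.2% of all genes. The median log2 difference of the 27 was 0.07, against −0.02 for all measured genes, with 16 of the 27 above 0, against 48.4% of all genes. None of the 27 reached 2-fold in this comparison, which 8.73% of all genes did. Nor did any reach 2-fold under doxazosin or the combination against DMSO, or under the combination against 13cRA or doxazosin, where 1.15%, 4.19%, 6.73% and 4.46% of all genes did. These splits depend on the scaling: with TMM factors, which set libraries equal over genes without extreme ratios, the all-gene median moved to −0.34 and with DESeq2 size factors to −0.31, and the 27 then split into 0 higher and 8 lower. Measured from the all-gene median, the 27 lay at 0.09 under each of the 3 scalings. Of the 4 libraries at the main scaling, that of 13cRA was highest for 7 and lowest for 9 of the 27 genes. It was highest for 34.6% and lowest for 36% of all measured genes.

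Among the lysosomal proteins, the differences under 13cRA were led by LAMP1 and GAA. LAMP1, a heavily glycosylated protein of the lysosomal membrane (chromosome 13, 113297241 to 113323672, plus strand, GRCh38), had 50.6, 18.8 and 26.3 CPM under 13cRA, doxazosin and the combination, against 29.05 CPM under DMSO. The 13cRA library was thus highest and the doxazosin library lowest, the widest spread among the 27 measured genes at 2.696-fold. On the log2 scale of CPM + 1, LAMP1 differed from DMSO by 0.78 under 13cRA, by −0.60 under doxazosin and by −0.14 under the combination. With TMM factors its difference under 13cRA was 0.45, or 0.80 above the all-gene median, and over the 11 alternative settings it ran from 0.26 to 0.92. GAA, the acid α-glucosidase that degrades glycogen (chromosome 17, 80101556 to 80119879, plus strand), had 30.6, 19.4 and 17.4 CPM under 13cRA, doxazosin and the combination, against 18.7 CPM under DMSO. Only the 13cRA library stood apart for GAA, by 0.68 on the log2 scale, or 0.35 with TMM factors, which was 0.70 above the all-gene median. In cells with 34000 to 120000 counts the GAA difference was 0.26.

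The remaining measured lysosomal genes stayed within 1.5-fold of DMSO under 13cRA. PSAP had 274, 224 and 325 CPM under 13cRA, doxazosin and the combination, against 204 CPM under DMSO, a difference of 0.43 under 13cRA. CTSB, the cysteine protease cathepsin B, had 38.7, 46.3 and 43.4 CPM against 58.2 CPM, and at −0.575 under 13cRA it lay just short of the fold. CTSB was lower than DMSO in all 3 drug libraries, with log2 differences of −0.58, −0.32 and −0.42. CTSD, the aspartic protease cathepsin D, had 32.03, 23.9 and 21.4 CPM against 27.2 CPM, but 52.7% of its exon bases in GENCODE 29 are shared with other genes, mostly a readthrough gene on the same strand. CTSL, the cysteine protease cathepsin L, had 38.7, 30.3 and 39.5 CPM against 35.8 CPM. CTSA, the protective protein of β-galactosidase and neuraminidase, had 61.3, 47.9 and 64.8 CPM against 59.1 CPM, and shares 28.5% of its exon bases with other genes. CTSL and CTSA shared an order, with doxazosin alone lowest and the combination highest. HEXA, the α subunit of β-hexosaminidase, had 19.3, 21.4 and 21.0 CPM against 24.7 CPM. LAMP2, the membrane protein that also serves chaperone-mediated autophagy, had 20.1, 25.2 and 22.0 CPM against 19.0 CPM. For these 2 genes no pair of libraries differed by 1.5-fold. NPC1 was flat at 6.67, 6.82 and 6.36 CPM against 6.00 CPM, and its intervals overlapped in all 4 libraries. MCOLN1, the calcium channel that links lysosomal calcium to TFEB, had 14.5, 15.9 and 11.4 CPM against 16.0 CPM, lowest where both drugs were given.

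Of the 4 pump subunits, 3 lay below DMSO under 13cRA, and the other one, ATP6V1H, lay at 0.06. With TMM factors ATP6V1H was at −0.27, or 0.07 above the all-gene median. ATP6V1B2, a B subunit of the ATP-hydrolysing sector (chromosome 8, 20197367 to 20226819, plus strand), had 76.0, 101 and 90.3 CPM under 13cRA, doxazosin and the combination, against 118 CPM under DMSO. Its difference under 13cRA was −0.63, or −0.96 with TMM factors (−0.61 from the all-gene median) and −0.34 in cells with 4000 to 4600 genes after thinning. ATP6V1A, the catalytic A subunit, had 77.6, 94.5 and 109.7 CPM against 99.4 CPM, and ATP6V0D1, of the membrane sector, had 63.0, 70.1 and 78.0 CPM against 84.2 CPM. For these 3 subunits the 13cRA library was the lowest of the 4, as it was for 36% of all measured genes. ATP6V1H, the regulatory H subunit, had 40.1, 49.2 and 43.6 CPM against 38.5 CPM and was highest under doxazosin. Summed over the 4 subunits, levels were 256.6, 314.7 and 321.7 CPM against 339.8 CPM. Of the TFEB control genes, TFE3 had 5.88, 5.96 and 7.18 CPM against 5.46 CPM, and FNIP1, the FLCN partner, had 21.0, 19.8 and 20.002 CPM against 15.03 CPM. FNIP1 was thus above DMSO to a like extent in the 3 drug libraries, by 0.46, 0.37 and 0.39 on the log2 scale, none of them 1.5-fold. With TMM factors the value of FNIP1 under 13cRA was 0.14, or 0.48 above the all-gene median.

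Of the 10 measured autophagy genes, 4 were past 1.5-fold under 13cRA, 2 higher and 2 lower, or 40% against 27.6% of all measured genes. The group is small, and among 36 measured other autophagy genes, described below, the share was 16.7%. ULK1, the kinase that starts autophagosome formation (chromosome 12, 131894651 to 131923167, plus strand), had 9.01, 6.78 and 6.61 CPM under 13cRA, doxazosin and the combination, against 5.34 CPM under DMSO. The Poisson interval of ULK1 under 13cRA, 7.82 to 10.3 CPM, lay above those of the other 3 libraries. With TMM factors the log2 difference of ULK1 from DMSO was 0.37, no longer past the fold, and 0.71 above the all-gene median. WIPI2, which reads the lipid made by the BECN1 complex and recruits the ATG12–ATG5 conjugate through ATG16L1 (chromosome 7, 5190188 to 5233826, plus strand), had 68.9, 34.2 and 51.9 CPM against 45.5 CPM. WIPI2 lay barely past the fold under 13cRA, at 0.588, and at 0.26 with TMM factors. BECN1, beclin 1 of the lipid kinase complex (chromosome 17, 42810134 to 42833350, minus strand), had 69.9, 109 and 122 CPM against 113 CPM, the lowest under 13cRA by 0.69 on the log2 scale. ATG5, which is conjugated to ATG12 (chromosome 6, 106045423 to 106325791, minus strand), had 21.8, 32.2 and 32.6 CPM against 33.2 CPM. BECN1 and ATG5 thus had nearly equal levels in the other 3 libraries and lower ones under 13cRA alone. The differences of BECN1 and ATG5 under 13cRA, −0.69 and −0.59, kept their sign in all 11 alternative settings, between −1.02 and −0.39 for BECN1 and between −0.91 and −0.34 for ATG5. BECN1 shares 17.1% of its exon bases with other genes, of which CNTD1 on the opposite strand had 144 counts against 20829 for BECN1.

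The other autophagy genes were within 1.5-fold of DMSO under 13cRA. MAP1LC3B had 142, 105 and 123 CPM under 13cRA, doxazosin and the combination, against 111 CPM under DMSO, and its near-identical copy MAP1LC3B2 had only 97 counts in all. GABARAPL2 had 178, 238 and 241 CPM against 196 CPM, lowest under 13cRA alone. SQSTM1, the cargo receptor p62, had 16.1, 20.9 and 16.1 CPM against 22.8 CPM, lower by 0.47 and 0.48 in the 2 libraries with 13cRA. It shares 22.0% of its exon bases, mainly with MRNIP on the opposite strand. ATG12 had 69.9, 93.9 and 90.7 CPM against 78.2 CPM, and ATG7, the enzyme that activates ATG12 and LC3 for conjugation, had 19.7, 21.0 and 14.8 CPM against 18.7 CPM. ATG7 was thus lowest in the combination, and it overlaps VGLL4 over 18.1% of its exon bases. WIPI1, a relative of WIPI2, had 6.01, 7.32 and 7.76 CPM against 4.36 CPM, above DMSO in all 3 drug libraries. WIPI1 is uncertain, because 24.3% of its exon bases lie opposite ARSG, which had 1165 counts against 1244 for WIPI1, and the strand setting of the counting is not given in the sources used here.

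**Figure D3:**
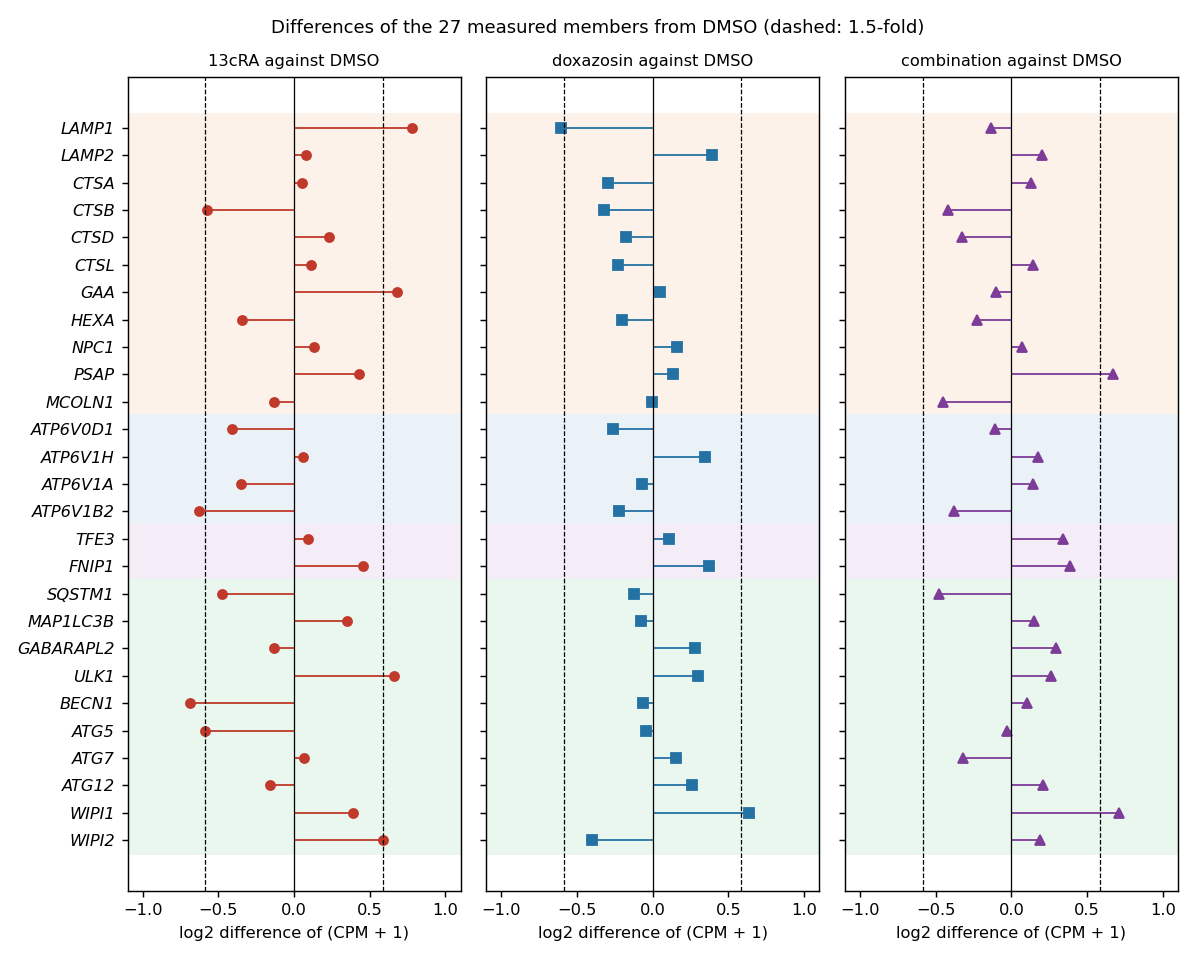
Log2 difference of CPM + 1 from DMSO for the 27 measured genes under 13cRA, doxazosin and the combination, 1 sample each, with background shades for the 4 roles and dashed lines at 1.5-fold. LAMP1 reaches 0.78 under 13cRA and −0.60 under doxazosin, BECN1 reaches −0.69 under 13cRA, and PSAP and WIPI1 reach 0.67 and 0.71 under the combination.

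Under doxazosin alone, 2 of the 27 measured genes differed from DMSO by at least 1.5-fold, WIPI1 higher at 0.63 and LAMP1 lower at −0.60, a share equal to the 7.41% found among all measured genes (3.42% higher and 3.99% lower). The median log2 difference was −0.05, against −0.02 for all genes, and 12 of the 27 lay above 0, against 46% of all genes. Next in size were WIPI2, at −0.40, and LAMP2, at 0.39. LAMP1 and WIPI2, both past the fold upward under 13cRA, thus had the lowest values of the 27 under doxazosin. The LAMP1 difference under doxazosin ran from −0.996 to −0.39 over the 11 alternative settings and that of WIPI1 from 0.40 to 0.84, with no change of sign.

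Under the combination, 2 of the 27 measured genes differed from DMSO by at least 1.5-fold, both higher, against 14.9% of all measured genes in either direction (7.41% higher and 7.46% lower). They were PSAP, at 0.67, and WIPI1, at 0.71. Both fell short of the fold in thinned cells, at 0.52 for PSAP and 0.39 for WIPI1, and in cells with 34000 to 120000 counts, at 0.43 and 0.44, as did PSAP by the mean of per-cell CPM, at 0.56, and WIPI1 with a pseudocount of 5 CPM. The count of PSAP was 23488 in the combination library, with an interval of 321 to 330 CPM, and 9822 under DMSO, with an interval of 200 to 208 CPM. PSAP (chromosome 10, 71816298 to 71851375, minus strand) differed from DMSO by 0.43 under 13cRA, 0.14 under doxazosin and 0.67 under the combination, and the doxazosin value kept its sign in only 7 of the 11 alternative settings, with a lowest value of −0.34. The median of the 27 was 0.13, against −0.02 for all genes, and 16 of 27 lay above 0, against 47.3% of all genes. By role, the median was −0.10 for 11 lysosomal genes, 0.02 for 4 pump subunits, 0.36 for 2 TFEB control genes and 0.17 for 10 autophagy genes.

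Against 13cRA alone, the combination had 3 of the 27 measured genes past 1.5-fold, BECN1 higher at 0.79 and LAMP1 and GAA lower at −0.92 and −0.78, against 26.9% of all measured genes (12.8% higher and 14.2% lower). Of the 27, 16 lay above 0, against 49.3% of all genes. This comparison and that of 13cRA with DMSO share the 13cRA library, so opposite signs in them are not separate observations. For LAMP1, the side-by-side log2 values were −0.92 for the combination against 13cRA and 0.78 for 13cRA against DMSO. For BECN1 they were 0.79 and −0.69. TMM factors moved the all-gene median of the combination against 13cRA to 0.29 and the split of the 27 to 7 higher and 1 lower. All 4 pump subunits were above 13cRA in the combination, ATP6V1A by 0.49, ATP6V0D1 by 0.30, ATP6V1B2 by 0.25 and ATP6V1H by 0.12.

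Against doxazosin alone, the combination had 1 of the 27 measured genes past 1.5-fold, WIPI2 higher at 0.59, against 14.7% of all measured genes (8.32% higher and 6.4% lower). Above 0 lay 14 of the 27, against 49.3% of all genes. PSAP followed WIPI2 at 0.54, LAMP1 at 0.47, CTSA at 0.43 and CTSL at 0.37. On the other side lay ATG7 at −0.47, MCOLN1 at −0.44 and SQSTM1 at −0.35. Of the unmeasured genes, FLCN was 0.93 above doxazosin in the combination, at 6.00 against 2.69 CPM.

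**Figure D4:**
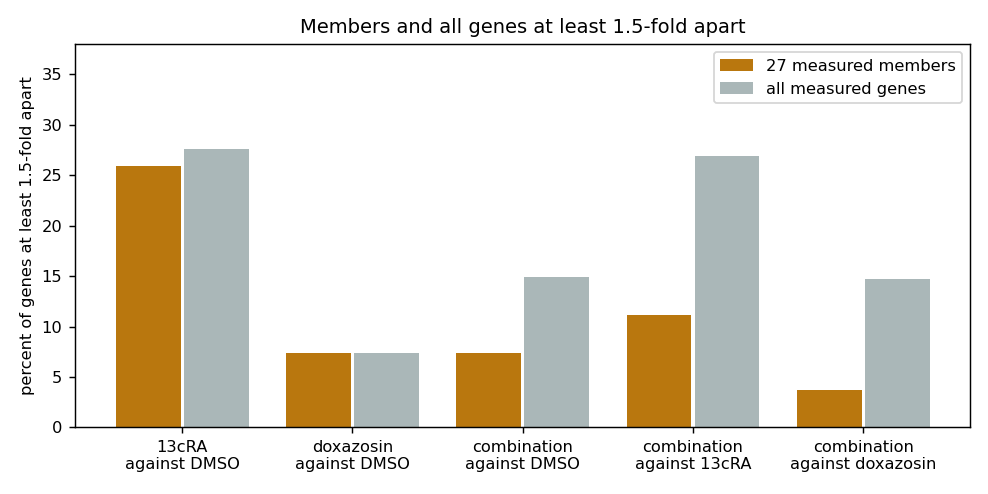
Percent of the 27 measured genes and of all 9579 measured genes that lay at least 1.5-fold apart in each comparison, with bars from 0. The shares are 25.9% against 27.6% for 13cRA, 7.41% against 7.41% for doxazosin and 7.41% against 14.9% for the combination, each against DMSO.

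The departure from additivity (the log2 level in the combination minus that under 13cRA minus that under doxazosin plus that under DMSO) was past 1.5-fold for 4 of the 27 measured genes, against 27.4% of all measured genes (13.5% above and 13.9% below). BECN1, at 0.85, and ATG5, at 0.61, lay above the sum of the single-drug differences. GAA, at −0.83, and ULK1, at −0.69, lay below it. All 4 were also past the fold in 13cRA against DMSO, with the opposite sign. Both values use the same 13cRA and DMSO libraries, so they are not separate observations. For GAA and ULK1 the level under the combination was near those under doxazosin, 17.4 and 19.4 CPM for GAA and 6.61 and 6.78 CPM for ULK1. The value of ULK1 turned to 0.90 in cells with 34000 to 120000 counts, of which the combination had only 38. The pump subunits ATP6V1A, ATP6V0D1 and ATP6V1B2 had values just under the fold, ATP6V1A at 0.57, ATP6V0D1 at 0.56 and ATP6V1B2 at 0.47. The split depends on the scaling: with TMM factors 8 of the 27 lay past the fold above the sum and 0 below it, GAA was at −0.54 and ULK1 at −0.43, and ATP6V1A, ATP6V0D1 and ATP6V1B2 reached 0.86, 0.85 and 0.76, while the all-gene median moved to 0.31. The median over the 27 was 0.11, against 0.03 for all genes.

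Genes with the E-box lay on both sides of DMSO in each drug library. Above DMSO lay 5, 2 and 2 of the 7 under 13cRA, doxazosin and the combination. Of the 13 measured genes with a promoter and no match, 8, 7 and 10 did. Of all measured genes, 48.4%, 46% and 47.3% did. Under 13cRA, the 7 genes with CACGTG had a median log2 difference of 0.23, between −0.41 for ATP6V0D1 and 0.78 for LAMP1, against 0.09 for the 13 measured genes with a promoter and no match. Under doxazosin the medians were −0.18 with and 0.11 without the motif, and under the combination −0.11 and 0.15. These are descriptions of small groups, and they depend on the scaling. With TMM factors the 13cRA values of CTSA and CTSD turned from 0.05 and 0.23 to −0.28 and −0.09. Those of CTSL and NPC1, without a match, turned from 0.11 and 0.13 to −0.21 and −0.16. LAMP1, GAA and FNIP1 stayed above DMSO, and the all-gene median was −0.34. LAMP1 and GAA, past 1.5-fold upward under 13cRA, carry the motif, as do MCOLN1 and ATP6V0D1, which lay below DMSO, whereas the window of the unmeasured CTSZ, at 1.39 on the log2 scale, holds no match.

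Levels of a summed library do not tell how many cells hold a gene, so each kept cell was thinned at random to 34000 counts, which left 249, 235 and 270 cells under 13cRA, doxazosin and the combination, and 328 under DMSO. Thinned 13cRA cells held fewer genes, with a median of 3892, against 4771, 4709 and 4688 in doxazosin, combination and DMSO cells. Of the 27 measured genes, 21 had a count in a smaller share of 13cRA than of DMSO cells, by a median of −10.4 percentage points. The share was also smaller for most genes at large, with a median of −7.71 points and only 14.0% of genes higher. In cells with a count, 25 of the 27 had more counts per cell under 13cRA, with a median ratio of 1.32 against 1.30 for all genes. The part of this difference in cell content in the results was not tested.

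BECN1 had a count in 49.4% of thinned 13cRA cells (exact 95% binomial interval 43.0% to 55.8%), 80.0% of doxazosin cells and 78.2% of combination cells, against 78.7% of DMSO cells. ATG5 had one in 18.5%, 45.1% and 44.1% of cells, against 44.2%. GABARAPL2 had one in 81.1%, 96.6% and 96.3%, against 96.7%. For these 3 autophagy genes the interval of 13cRA cells lay below those of the other libraries, as it did for MAP1LC3B and ATG12. It also did for the pump subunits ATP6V0D1, ATP6V1A and ATP6V1B2, and for CTSB and HEXA, so this was not particular to autophagy genes. Set against DMSO cells only, the interval of 13cRA cells lay below for 12 of the 27 genes and above for 0. How many of all measured genes had such intervals was not counted. These intervals are over cells of 1 library each. Shares were also smaller in 13cRA than in DMSO cells for genes at large, by a median of −7.71 points. LAMP1 was among the few genes seen in more 13cRA cells, with 53.8%, 29.4% and 45.2% under 13cRA, doxazosin and the combination, against 48.2% under DMSO. The interval of LAMP1 under doxazosin, 23.6% to 35.6%, lay below those of the other 3 libraries. In LAMP1-positive cells the mean was 3.52, 1.81 and 2.02 counts, against 2.27 counts under DMSO. GAA had a count in nearly the same share of cells everywhere, 26.5%, 28.1% and 28.5% against 28.96%, and its mean in positive cells was 3.23, 2.24 and 2.00 counts against 2.30. CTSB had a count in 32.5%, 54.0% and 45.9% of cells, against 60.7% under DMSO. PSAP was nearly ubiquitous, in 92.8%, 92.8% and 95.9% of cells against 89.3%, with a mean of 10.0, 7.45 and 11.1 counts per positive cell against 8.29.

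**Figure D5:**
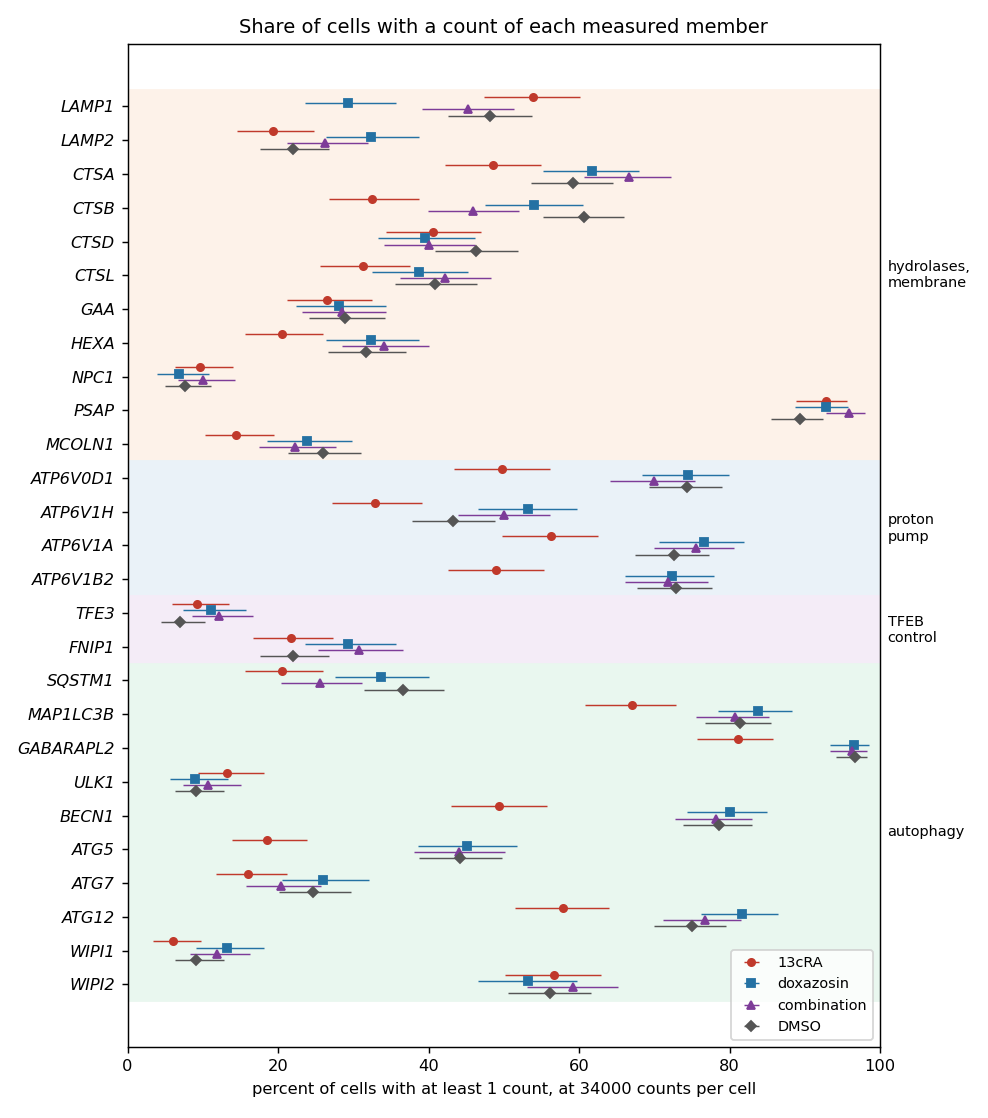
Percent of cells with at least 1 count of each of the 27 measured genes after thinning to 34000 counts per cell, with exact 95% binomial intervals, for 13cRA, doxazosin, combination and DMSO cells. The 13cRA points lie furthest left for most genes, as for BECN1 at 49.4% and ATG5 at 18.5%, while for LAMP1 the doxazosin point is lowest at 29.4%.

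A score per cell, the mean of log2(CPM/10 + 1) over the 27 measured genes in thinned cells, had a median of 1.28 (SD over cells 0.390) under 13cRA, 1.57 (0.369) under doxazosin and 1.58 (0.362) under the combination, against 1.55 (0.350) under DMSO. The score of 25.3% of 13cRA cells, 54.5% of doxazosin cells and 53.7% of combination cells exceeded the DMSO median. For the 11 lysosomal genes the medians were closer, at 1.245, 1.21 and 1.32 against 1.31, and for the 10 autophagy genes they were 1.38, 1.82 and 1.80 against 1.78. For the 4 pump subunits they were 1.55, 2.39 and 2.32 against 2.24. No score was made over all genes, and thinned 13cRA cells held fewer genes, a median of 3892 against 4688 in DMSO cells. The scores therefore do not tell the members apart from genes at large.

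Other genes of the same pathways, from lists that are not part of the 32, also held members on both sides of DMSO. Their splits are given at the main scaling only. TMM and DESeq2 factors, which moved the all-gene median under 13cRA to −0.34 and −0.31, were not applied to these lists. Of 42 other hydrolases, 27 were measured, and 4 were at least 1.5-fold higher and 6 lower under 13cRA than under DMSO (all measured genes 14.4% and 13.2%), with LGMN, an asparagine-specific protease, at a log2 difference of −0.95 and PPT1, a palmitoyl thioesterase, at 71.2 against 132 CPM. GLA lay above DMSO under 13cRA, at 56.4 against 38.6 CPM. Under doxazosin 0 of the measured other hydrolases were higher and 2 lower, and under the combination 4 and 4. The shares of other hydrolases past the fold were 37.0%, 7.41% and 29.6% under 13cRA, doxazosin and the combination, against 27.6%, 7.41% and 14.9% of all measured genes. Of 27 other lysosomal membrane and sorting genes, 19 were measured, with 1 higher and 2 lower under 13cRA, 1 and 0 under doxazosin and 0 and 0 under the combination, or 15.8%, 5.26% and 0% past the fold. Among them M6PR, the cation-dependent mannose 6-phosphate receptor that sorts hydrolases, had 14.4 CPM under 13cRA against 29.3 CPM under DMSO. CD164 was also lower under 13cRA, at a log2 difference of −0.58, and SCARB2 was higher, at 0.51. Of 20 other pump subunits, 14 were measured, with 1 higher and 1 lower under 13cRA, 0 and 0 under doxazosin and 0 and 1 under the combination, or 14.3%, 0% and 7.14% past the fold. The gene that was lower in both was ATP6V0E2, of the membrane sector, at 22.6 and 31.0 CPM under 13cRA and the combination against 59.7 CPM under DMSO. Within the fold under 13cRA, ATP6V0B lay below DMSO, at −0.44 on the log2 scale, and ATP6V0A1 above it, at 0.41.

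Of 29 other TFEB and mTORC1 control genes, 26 were measured, with 5 higher and 7 lower under 13cRA, 3 and 2 under doxazosin and 3 and 2 under the combination. The shares past the fold were 46.2%, 19.2% and 19.2%, against the 27.6%, 7.41% and 14.9% of all measured genes. RRAGC, the RagC GTPase on which FLCN acts, had 60.8 CPM under 13cRA against 31.5 CPM under DMSO, and 26.5 CPM under the combination. LAMTOR3, of the Ragulator that anchors Rag GTPases to lysosomes, had 38.2, 88.1 and 82.0 CPM under 13cRA, doxazosin and the combination, against 63.1 CPM under DMSO. RRAGC was thus highest and LAMTOR3 lowest under 13cRA alone, as were 34.6% and 36% of all measured genes in turn. Of 45 other autophagy genes, 36 were measured, with 2 higher and 4 lower under 13cRA, 0 and 1 under doxazosin and 1 and 2 under the combination, or 16.7%, 2.78% and 8.33% past the fold. GABARAP, the founding member of its family, had 39.0 CPM under 13cRA against 73.3 CPM under DMSO and 73.3 CPM under the combination, and was lowest under 13cRA alone, as was GABARAPL2. RAB7A was also lower under 13cRA than under DMSO, at 117.6 against 195.7 CPM, and TMEM41B was higher, at 47.1 against 27.3 CPM. BNIP3, a mitophagy receptor, had 99.5 CPM under doxazosin against 66.8 CPM under DMSO, and lay 0.50 above DMSO on the log2 scale in the combination, and TBK1, a kinase of autophagy receptors, had 22.0 CPM under doxazosin against 35.4 CPM.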

How the data were processed

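The deposited table holds raw counts of reads per gene and cell as the authors made them, in whole numbers with no molecular identifiers, for cells of a full-length SMARTer ICELL8 protocol per the labels. Per the submitters' processing notes, the tools were STAR 2.7.8a, featureCounts, bcl2fastq, Seurat 4.3.0 and fastp 0.23.3, and the builds named are GRCh38.p13 and GRCh37. Which annotation release was used, whether counting used strand and how shared reads were treated is not given in the sources used here. Cell names carry the treatment and no barcode, so shared barcodes could not be counted, and no doublet caller was run, since wells with single cells had been chosen by imaging.

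Counts of kept cells (at least 500 genes, at most 25% mitochondrial) were summed per library and scaled to CPM. Differences are log2 of CPM + 1 in one library over CPM + 1 in another. A gene was called past 1.5-fold by size alone, because each treatment has 1 sample and cells are not replicates. Intervals are exact Poisson for levels and Clopper-Pearson for shares, at 95%. Reads amplified without identifiers are not independent molecules, so intervals, and the limit of 3 counts behind a count of 0, cover counting error only. Shares and scores used cells thinned to 34000 counts, leaving out 69 13cRA, 4 doxazosin, 17 combination and 25 DMSO cells as too shallow.

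The members, the lists of other pathway genes and the markers were chosen with earlier results of these data known. All 32 genes could be named, and from each wider list up to 3 genes per comparison, those with the largest absolute difference among genes with a mean of at least 20 CPM, of which some are given. Of 60651 gene IDs, 60481 matched a symbol and 58405 were found in GENCODE 29, whose GRCh38 coordinates and exon lengths are used and which is not known to be the annotation behind the counts. Alternatives used TMM factors (edgeR 4.0.16) and DESeq2 1.42.0 size factors in R 4.3.3. The scripts ran in Python 3.11.15 with numpy 2.4.6, scipy 1.17.1, pandas 2.3.3 and matplotlib 3.10.9. The calculation of differences was tested on simulated Poisson counts with known folds. These do not cover the effects of scaling, of amplified reads or of spread between samples.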

Additional observations from a re-analysis of the deposited data

How the results depend on the processing

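No paired analysis was possible because each treatment has 1 sample and no test was run. The median of the 27 measured genes moved beyond its rank interval for the combination against 13cRA, where 0.12 was reported, to 0.414 under TMM scaling and 0.347 under DESeq2 scaling, and for the departure from additivity to 0.39 with TMM factors; the cause was not tested, and the all-gene median moved along (0.29, 0.22 and 0.31). Counts of genes past 1.5-fold were as follows where they moved by over 1.5 times. For 13cRA against DMSO (reported 7) there were 4 in cells with 4000 to 4600 genes after thinning, 3 with a pseudocount of 5 CPM and 0 at 2-fold. For doxazosin against DMSO (reported 2) there were 1 with DESeq2 size factors and 1 with no cell filter, 8 in cells with 34000 to 120000 counts, 4 in the 4000 to 4600 gene window, 0 with the larger pseudocount and 0 at 2-fold. For the combination against DMSO (reported 2) there were 6 and 9 in these 2 windows, 1 with the larger pseudocount, 4 with no minimum level and 0 at 2-fold. For the combination against 13cRA (reported 3) there were 8 with TMM factors, 6 with DESeq2 size factors, 5 without cells of over 9000 genes, 7 and 6 in the windows and 0 at 2-fold. For the combination against doxazosin (reported 1) there were 0 with TMM factors, DESeq2 size factors, totals without mitochondrially encoded genes, cells of 2000 or more genes, no cell filter, the larger pseudocount and 2-fold, 2 with the mean of per-cell CPM, 4 in thinned cells, 5 and 6 in the windows and 4 with no minimum level. For the departure from additivity (reported 4) there were 8 with TMM factors, 7 with DESeq2 size factors, 8 and 10 in the windows, 2 with the mean of per-cell CPM, 2 with the larger pseudocount and 0 at 2-fold. The count window holds 203 13cRA, 58 doxazosin, 38 combination and 141 DMSO cells and the gene window 92, 35, 76 and 106. Among values reported past 1.5-fold, the sign turned for 2: ULK1 departed from additivity by 0.90 in the count window, and GAA in the combination against 13cRA was at 0.0208 in the gene window. Of the 27, the sign was the same in all 11 alternatives for 16 genes in 13cRA against DMSO, 15 in doxazosin and 15 in the combination against DMSO, 10 in the combination against 13cRA and 9 against doxazosin, and 9 for the departure from additivity. A minimum level set without the 13cRA library, chosen after seeing the data, changed no count by over 1.5 times. Depth limits the 13cRA library most. TFEB, NPC2 and GABARAPL1 had few counts in every library. Whether reads shared with other genes lowered the counts of NPC2 and GABARAPL1 was not tested.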
